A study of Bos taurus with 8 samples.

Results

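The proteasome genes of the fetal bovine liver were compared between fetuses of dams on low and on high nutrition. The members were chosen by symbol. A probe counted when its RefSeq accession belonged to a gene whose symbol starts with PSM, a letter from A to G and a digit. Of the 50 such genes in the reference table, 47 had a matched probe, and all 47 were detected, out of 10860 genes with a detected probe. Their 94 probes were all detected. PSME3, PSMG4 and PSMA8 had no matched probe. PSMC3IP and PSME3IP1 matched by their letters only, since they encode a recombination factor and a partner of PSME3 rather than proteasome subunits. They are described apart, and counts over the 47 members include both.

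RNA was measured on one-colour Agilent bovine arrays, with 1 array for each of 8 Japanese Black fetuses at 8.5 months after conception. The dams of the LN group (low nutrition; fetuses L5, L6, L8 and L9) received 60% of their nutritional requirement through gestation, and those of the HN group (high nutrition; fetuses L1, L2, L3 and L10) received 120%. There was no group fed at requirement, so HN is not an untreated control. By the study's methods, all fetuses came from male-sorted semen of the same sire, and the fetuses put on arrays were those of lowest body weight in LN and of highest body weight in HN, so diet and fetal weight cannot be told apart. The series description speaks of RNA pooled by group, whereas the sample labels name 8 separate fetuses, and the arrays were treated here as such. The 4 LN arrays lay on one slide and the 4 HN arrays on the other, so slide and group cannot be told apart.

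On the arrays, 32635 to 33371 spots were well above background in LN and 33254 to 34369 in HN, and 0 spots were saturated. The number of arrays limits the precision. Hepatocyte markers (albumin, transferrin and others) were detected for 8 of 8 genes, of which 6 were higher in LN (median difference 0.013), with a summed linear signal of 1992293 to 2081051 in LN and 1934169 to 2052923 in HN. As a mean over each gene's probes, 3 of 8 were higher, with a median of -0.021. Endothelial markers were higher in LN for 6 of 8 genes (median 0.10, and -0.0071 without L6) and stellate cell markers for 3 of 8 (median -0.13, and 0.096 without HN L2). Erythroid markers were higher in LN for 6 of 7 detected genes, with a median difference of 1.14. Without L5, they were higher for 5 of 7, with a median of 0.42. The summed erythroid signal was 6225 in LN L5 and 614 to 915 in the other LN fetuses, against 532 to 833 in HN. These arrays measure RNA of whole tissue, so fewer cells of a type and less RNA per cell cannot be told apart.

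The proteasome degrades proteins that carry ubiquitin chains. Its 20S core is a barrel of 2 outer alpha rings, which form the gate, and 2 inner beta rings, which hold the proteolytic sites. The 19S cap consists of a base, whose ATPases unfold the substrate and thread it into the core, and a lid, which removes the ubiquitin. In cells exposed to interferon gamma, the catalytic subunits PSMB5, PSMB6 and PSMB7 are replaced in newly built cores by PSMB8, PSMB9 and PSMB10. The product is the immunoproteasome, which supplies peptides for presentation by MHC class I. In the liver, as elsewhere, most cells carry the constitutive form, and leucocytes are rich in the immunoproteasome.

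Below, a level is the quantile normalized log2 signal of a gene's brightest detected probe, and a difference is the LN mean minus the HN mean on that scale. Levels of different genes come from different probes and were not ranked against each other. The 3 immunoproteasome subunits were lower in LN, by 0.37 to 0.53 on the log2 scale. The alpha ring was higher in LN for 7 of 7 subunits, with a median difference of 0.12. The lid was higher for 6 of 8 subunits, with a median of 0.17. The base was higher for 8 of 9, with a median of 0.046, and the beta ring for 3 of 7, with a median of -0.014. As a mean over each gene's probes, the base was higher for 6 of 9, and without HN L3 for 5 of 9. The small differences rested on few fetuses. Leaving out 1 fetus moved the difference by more than 1.5 times for 41 of 47 members (all but PSMA3, PSMA5, PSMB2, PSMB8, PSMB10 and PSMD12) and turned its sign for 14.

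None of these differences passed the test across all genes. With limma and Benjamini-Hochberg adjustment, 0 of 47 members had an adjusted p at or below 0.05, and the lowest was 0.765. The same held for all genes, of which 0% passed. At an unadjusted limma p of 0.05, 1 member was higher in LN (PSMA3) against 3.3% of all genes, and 1 was lower (PSMB10) against 2.75% of all genes. The 2 groups did not overlap for 1 member higher in LN (PSMA3), beside 2.59% of all genes, and for 0 members lower in LN, beside 1.56% of all genes. These member counts are near the background. In direction, 33 of 47 members (70.2%) were higher in LN by any amount, compared with 51.6% of all genes, and the median differences were 0.079 and 0.0075. Among the 31 constitutive subunits of the 26S proteasome (alpha ring, beta ring, base and lid), 24 were higher and 7 lower, with a median of 0.11. This median was 0.063 without L5, 0.065 without L8 and 0.071 without HN L3, and those of the lid and the alpha ring were lowest without HN L10 (0.11) and without L5 (0.042). At the level of probes, 44 of 61 were higher.

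**Figure D1:**
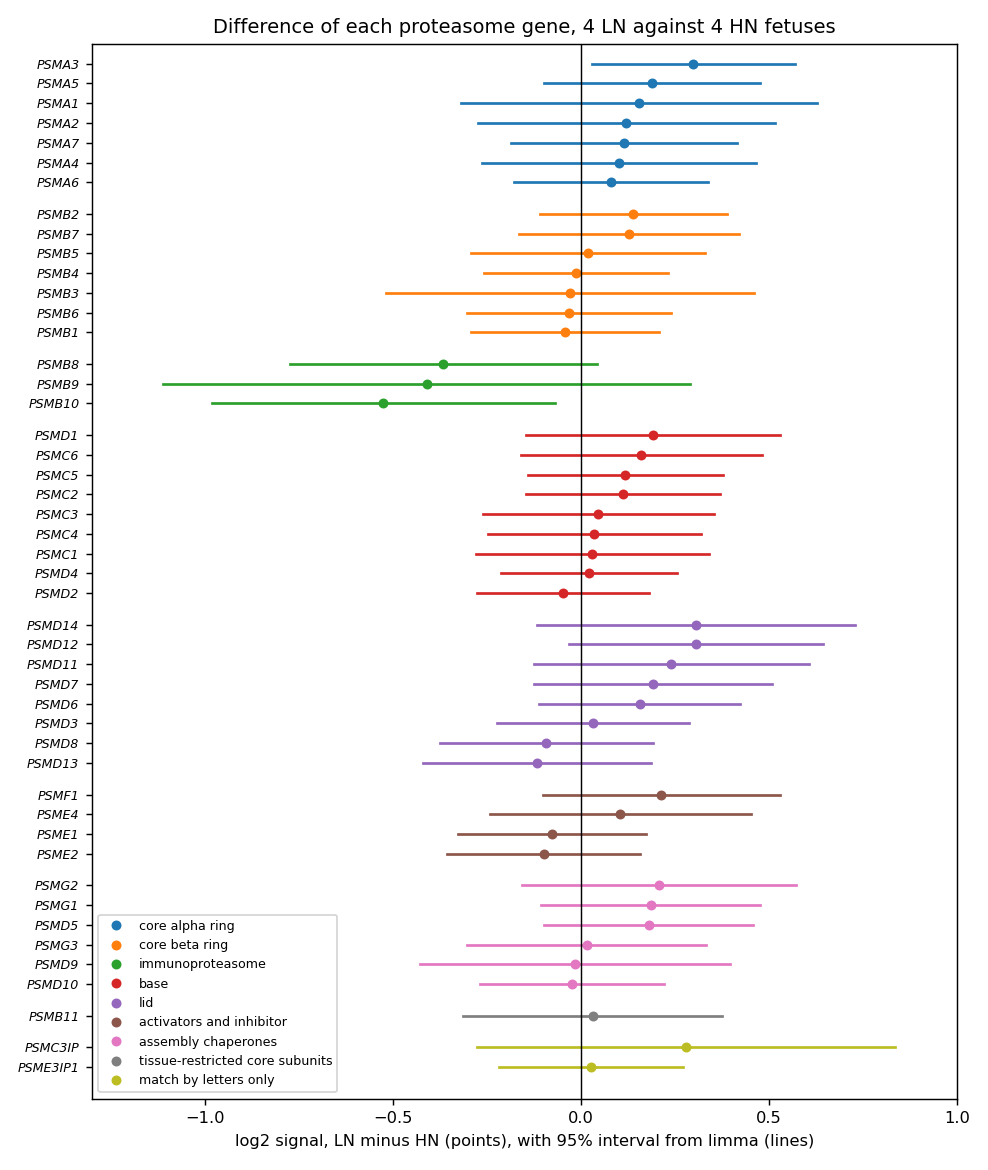
LN minus HN difference in log2 signal of each member gene (horizontal axis), grouped by its place in the proteasome, with points for the estimate and bars for the limma 95% confidence interval. The 3 immunoproteasome subunits lie farthest to the left, from -0.53 to -0.37, and the constitutive subunits lie between -0.12 and 0.31.

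The constitutive subunits varied little between fetuses. Their pooled SD within groups had a median of 0.151 on the log2 scale, compared with 0.232 over all genes. The 2 medians were not matched for signal level. For example, the SDs in LN and HN were 0.062 and 0.13 for the bright probe of PSMD3 and 0.82 and 0.71 for its dim probe. For 21 of 31, the difference between the groups was smaller than this SD. Expressed as LN over HN, the fold ranged from 0.922 to 1.24. The 95% confidence interval of the difference lay within a 1.5-fold change in either direction for 27 of 31 subunits, and the widest bounds reached -0.52 and 0.73.

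In the immunoproteasome, PSMB8 (NM_001040480), which takes the place of the chymotrypsin-like PSMB5, had levels of 10.09, 10.38, 9.98 and 9.68 in LN L5, L6, L8 and L9. Its levels in HN L1, L2, L3 and L10 were 10.62, 10.08, 10.48 and 10.42. The highest LN fetus, L6, and the lowest HN fetus, L2, crossed over, so the groups overlapped. The LN mean of 10.04 ± 0.29 (SD, n = 4) was below the HN mean of 10.40 ± 0.23 by 0.37 (SE 0.18, limma adjusted p = 0.787, exact 2-sided permutation p = 0.0857).

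PSMB9 (NM_001034388), the counterpart of the caspase-like PSMB6, had levels of 11.23, 11.12, 10.91 and 9.88 in the LN fetuses in the same order. In HN, these were 11.67, 10.85, 11.06 and 11.20. The level in L9 lay 1 log2 unit or more below that of every other LN fetus, and the other 3 LN fetuses lay within the HN range. The mean difference was -0.41 (SE 0.31, limma adjusted p = 0.846, exact permutation p = 0.40), and without L9 it was -0.11.

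PSMB10 (NM_001034040), the counterpart of the trypsin-like PSMB7, had levels of 8.17, 7.92, 8.35 and 7.47 in LN. The levels in HN were 8.76, 8.43, 8.30 and 8.51. LN L8, at 8.35, lay just above HN L3, at 8.30, and the groups were otherwise apart. The LN mean of 7.97 ± 0.38 (SD, n = 4) was below the HN mean of 8.50 ± 0.19 by 0.53 (SE 0.20), a ratio of 0.695, with an unadjusted limma p of 0.0282, an adjusted p of 0.765 and an exact permutation p of 0.0571. The unadjusted p was above 0.05 when L6, L9, L1 or L10 was left out (0.0538 to 0.0786, limma), and the difference without L9 was -0.35.

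The further probes of PSMB8 and PSMB9 pointed the same way, and PSMB10 was read by 1 probe. Of 7 immunoproteasome probes, 7 were lower in LN. The other 2 probes of PSMB8 gave differences of -0.36 and -0.39, and those of PSMB9 gave -0.38 and -0.43. Probes of a gene read the same RNA and are not independent evidence. In each of the 3 genes, L9 was the lowest of the LN fetuses, and the median difference of the 3 genes was -0.25 without L9, compared with -0.41 with all fetuses. Without L5, it was -0.56.

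The constitutive counterparts did not differ beyond the spread. PSMB5 (NM_001037612) had levels of 12.70, 12.48, 12.60 and 12.61 in LN and of 12.50, 12.89, 12.36 and 12.56 in HN, with a difference of 0.018 (SE 0.14, 95% interval -0.29 to 0.33). PSMB6 (NM_001034369) had levels of 12.11, 12.18, 12.25 and 12.13 in LN and of 12.06, 12.32, 12.05 and 12.36 in HN, with a difference of -0.032 (SE 0.12, interval -0.30 to 0.24). PSMB7 (NM_001038527) had levels of 14.08, 14.03, 14.08 and 13.91 in LN and of 13.76, 14.14, 13.71 and 13.98 in HN, with a difference of 0.13 (SE 0.13, interval -0.17 to 0.42). In all 3, the LN levels lay inside the range of the HN levels. Leaving out 1 fetus turned the sign of PSMB5 and PSMB6, and the difference of PSMB7 was 0.067 without HN L3 and 0.21 without HN L2.

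**Figure D2:**
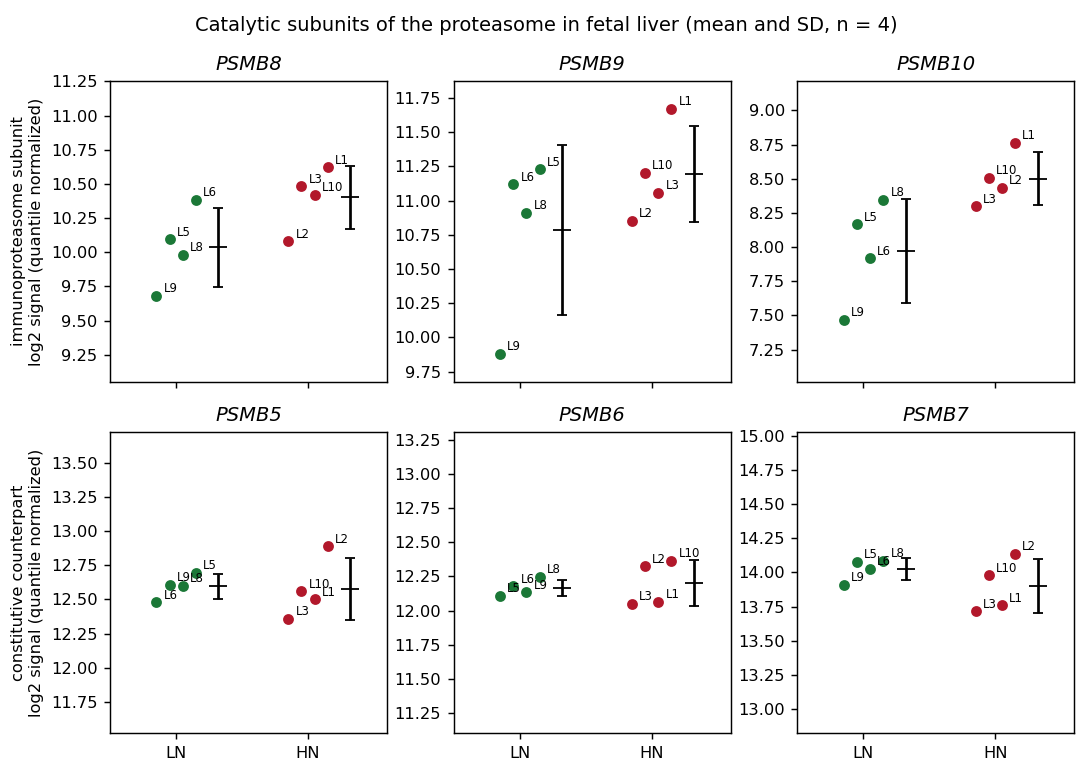
Quantile normalized log2 signal (vertical axis) of the 3 immunoproteasome subunits and the 3 constitutive catalytic subunits in each of the 8 fetuses, with points for single fetuses and horizontal lines for the group means. PSMB10 shows the widest gap between the groups (7.97 and 8.50), and the low LN point of PSMB9 is L9, at 9.88.

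The exchange of subunits was examined as the log2 signal of the inducible subunit minus that of its constitutive counterpart within each array. The value itself depends on the 2 probes, and only its difference between groups is interpretable. For PSMB10 minus PSMB7, the values were -5.91, -6.11, -5.74 and -6.44 in LN and -5.00, -5.71, -5.42 and -5.47 in HN, with no overlap. LN was lower by 0.65 on average (exact 2-sided permutation p = 0.0286, the smallest that 4 against 4 fetuses allow, and 0.0857 after Benjamini-Hochberg adjustment over the 3 pairs). PSMB7 entered through the brighter of its 2 probes, which differed by 0.13. The dimmer probe differed by -0.0014 (SE 0.23), so the size of this pair's difference depends on the probe. For PSMB8 minus PSMB5, the values ranged from -2.92 to -2.10 in LN and from -2.81 to -1.88 in HN, and the mean difference was -0.38 (exact permutation p = 0.20, adjusted 0.30). For PSMB9 minus PSMB6, they ranged from -2.26 to -0.88 in LN and from -1.47 to -0.39 in HN, and the mean difference was -0.38 (exact permutation p = 0.429, adjusted 0.429). It was -0.086 without L9 and -0.17 without L1. The difference of PSMB8 minus PSMB5 was -0.60 without L2. Thus, 0 of 3 pairs passed the adjusted threshold, and 1 of 3 did so before adjustment. The p of PSMB10 minus PSMB7 was 0.0571 (exact permutation) without L5, L6, L9, L1, L3 or L10 and remained at 0.0286 without L8 or L2.

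**Figure D3:**
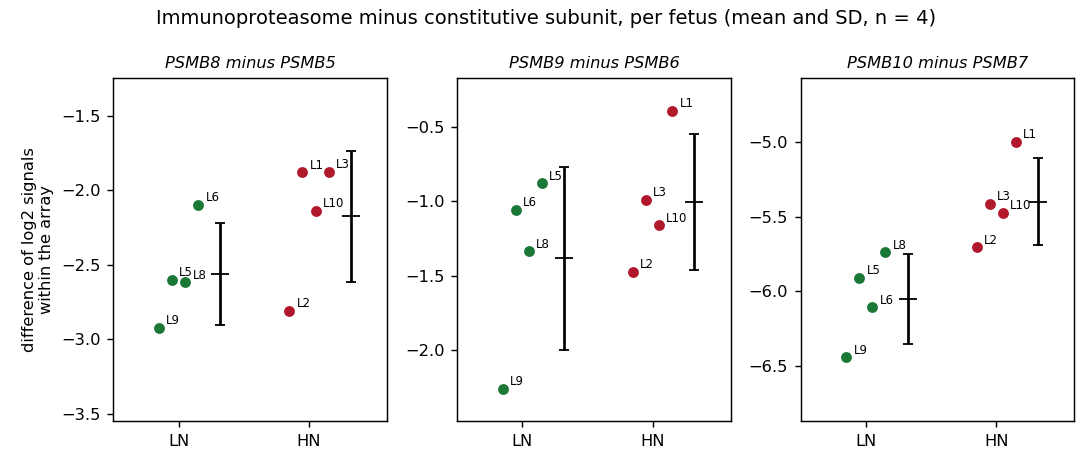
Log2 signal of the inducible minus the constitutive subunit within each array (vertical axis) for the 3 pairs, with points for single fetuses and lines for the group means. The LN and HN fetuses separate for PSMB10 minus PSMB7 (means -6.05 and -5.40) and overlap for the other 2 pairs.

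Genes that share the interferon gamma response or the presentation pathway were read beside the immunoproteasome. In the reference assembly ARS-UCD2.0, TAP1, a subunit of the transporter that carries peptides into the endoplasmic reticulum, is the only protein-coding gene between PSMB8 and PSMB9. Its difference was -0.13 (SE 0.15, and -0.047 without L5), with 9.03 to 9.52 in LN and 9.23 to 9.62 in HN. Of 15 detected genes of antigen processing and the interferon gamma response, 9 were lower and 6 higher in LN. Their median difference was -0.067, and without L9 it was 0.15, with 9 of 15 higher. At an unadjusted limma p of 0.05, 1 of these was lower and 0 were higher, beside 2.75% and 3.3% of all genes. This was IRF1, a transcription factor that drives the immunoproteasome genes, with 10.58, 10.29, 10.16 and 9.88 in LN and 11.12, 10.52, 10.92 and 10.50 in HN. Its difference was -0.54 (SE 0.20, limma adjusted p = 0.76, exact permutation p = 0.0857). In IRF1 too, L9 was the lowest and L1 the highest fetus. A role of IRF1 in the immunoproteasome difference was not tested. The paired activators PSME1 and PSME2, which are also inducible by interferon gamma, differed by -0.078 (SE 0.11) and -0.099 (SE 0.11), and the latter was -0.043 without HN L2.

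Leucocyte markers were read in the same fetuses. All 9 detected leucocyte genes were lower in the LN group. Their median difference was -0.14, and 7 to 9 were lower with 1 fetus left out (medians -0.28 to -0.087). At an unadjusted limma p of 0.05, 1 of the 9 was lower, beside 2.75% of all genes, and the lowest limma adjusted p was 0.76. CD79B, MARCO and MRC1 of these lists had no matched probe. The summed linear signal of the 9 genes was 14599 to 17881 in LN and 14948 to 19916 in HN. For Kupffer cells and macrophages, LN was below HN in 6 of 8 genes. The median difference was -0.052, 0.056 without L9 and -0.26 without HN L2, with sums of 127086 to 197340 in LN and 133830 to 213010 in HN. The lowest sum of both lists in LN was that of L9 and the lowest in HN that of L2, the fetuses with the lowest median of the immunoproteasome in their groups. The highest sums in LN were those of L5, whereas the immunoproteasome median was highest in L6. In HN, the leucocyte sum was highest in L3 and the Kupffer cell sum in L1, where the immunoproteasome median was highest. As a median of log2 signal minus the gene's mean, leucocytes in LN were lowest in L8 (-0.18, beside -0.14 in L9). No marker of either list with a matched probe was undetected. The part of these cells in the immunoproteasome result was not tested.

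**Figure D4:**
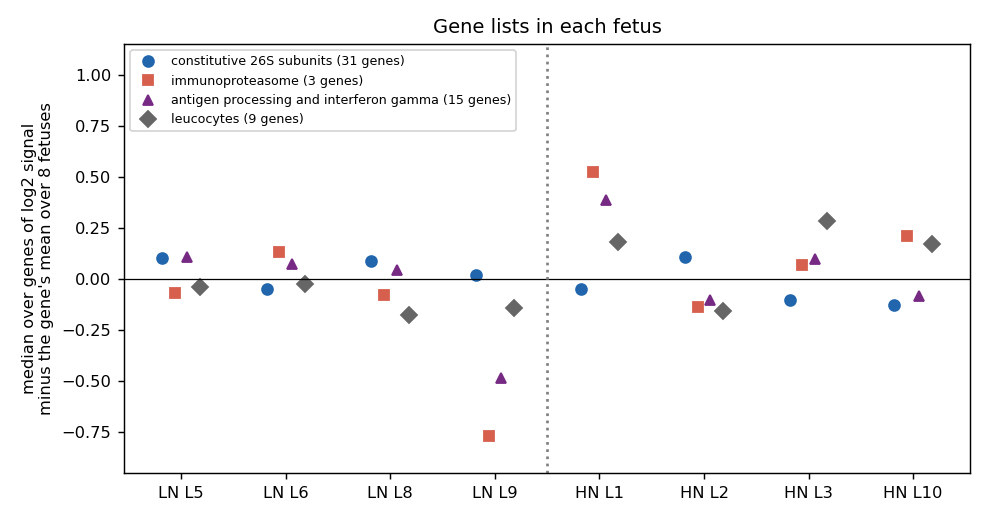
Median over the genes of 4 lists of the log2 signal minus the gene's mean over the 8 fetuses (vertical axis), for each fetus (horizontal axis), with LN to the left and HN to the right of the dotted line. The immunoproteasome is lowest in L9 and highest in L1, the antigen processing and interferon gamma list is lowest and highest in the same fetuses, and the constitutive subunits stay within 0.13 of their mean.

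In the alpha ring, the 7 subunits form the outer surface and gate of the core. PSMA3 (NM_001034235) had the largest difference of the ring, with levels of 11.64, 11.49, 11.39 and 11.31 in LN and of 11.17, 11.29, 11.13 and 11.05 in HN. All LN fetuses lay above all HN fetuses, with the closest levels in L9 and L2. The means were 11.46 ± 0.14 and 11.16 ± 0.10 (SD, n = 4), and the difference was 0.30 (SE 0.12), a ratio of 1.23, with an unadjusted limma p of 0.0336, an adjusted p of 0.783 and an exact permutation p of 0.0286. The unadjusted limma p was above 0.05 without L5, L6, L1, L3 or L10 (0.0643 to 0.0878) and was 0.0637 with position on the slide as a block. PSMA3 was read by 1 probe.

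The other 6 alpha subunits differed by 0.079 to 0.19, each with overlapping groups. PSMA6 (NM_001045962) had the smallest difference, with levels of 13.63, 13.39, 13.61 and 13.41 in LN and 13.41, 13.49, 13.50 and 13.32 in HN. Between them lay PSMA5 (0.19, SE 0.13), PSMA1 (0.15, SE 0.21), PSMA2 (0.12, SE 0.17), PSMA7 (0.11, SE 0.13) and PSMA4 (0.10, SE 0.16). Without L5, PSMA1 differed by 0.038, PSMA2 by 0.042 and PSMA7 by 0.039. Without HN L3, PSMA1 differed by 0.038, PSMA2 by 0.0035 and PSMA4 by 0.24. With any 1 fetus left out, the 7 subunits were each still higher in LN. PSMA1 and PSMA2 were both higher in LN L5 and L8 than in L6 and L9, and both were high in HN L2 and low in L3. Before normalization, the arrays of L5 and L8 were also brighter than those of L6 and L9. With array brightness (75th percentile of log2 signal) as a covariate, the median of the ring was 0.18. The median of the ring stayed between 0.042 (without L5) and 0.20 (without L6).

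In the beta ring, apart from the catalytic subunits, PSMB2 (NM_001015615) had the highest difference, with levels of 11.56, 11.62, 11.67 and 11.72, compared with 11.44, 11.46, 11.43 and 11.67 in HN. L10 alone of the HN fetuses reached the LN range. The difference was 0.14 (SE 0.11, exact permutation p = 0.114). PSMB1 (NM_001038539) had the lowest difference, -0.044 (SE 0.11), with levels of 13.95, 13.90, 13.95 and 14.09 in LN and 13.94, 14.11, 14.11 and 13.90 in HN. PSMB3 and PSMB4 differed by -0.029 (SE 0.22) and -0.014 (SE 0.11). The median of the ring changed sign between alternatives and ranged from -0.035 to 0.098 without 1 fetus.

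In the base, the brightest probes of the 6 ATPases (PSMC1 to PSMC6) were higher in LN, by 0.030 to 0.16, with a median of 0.078. As a mean over probes, PSMC1 (-0.028) and PSMC3 (-0.057) were lower in LN, and 4 of 6 were higher. Without HN L3, 3 of 6 were higher. PSMC6 (0.16, SE 0.14), PSMC5 (0.12, SE 0.11) and PSMC2 (0.11, SE 0.11) led, and PSMC3, PSMC4 and PSMC1 differed by less than 0.05. PSMD1 (NM_001101077) and PSMD2 (NM_001101197), the large scaffolds of the base, stood at the ends of the range. PSMD1 had levels of 12.90, 12.35, 12.57 and 12.59 in LN and 12.43, 12.60, 12.41 and 12.21 in HN, a difference of 0.19 (SE 0.15, exact permutation p = 0.286), which was 0.091 without L5 and 0.12 without HN L10. PSMD2 had levels of 12.62, 12.69, 12.76 and 12.63 in LN and 12.69, 12.72, 12.79 and 12.69 in HN, a difference of -0.048 (SE 0.10, exact permutation p = 0.314). The ubiquitin receptor PSMD4 differed by 0.020 (SE 0.10). In every one of these, the groups overlapped.

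In the lid, PSMD14 (NM_001076067), the deubiquitinase that cleaves the chain off the substrate, had the highest difference of the lid, next to PSMD12. Its levels were 10.73, 10.17, 10.57 and 10.07 in LN and 10.18, 10.35, 9.90 and 9.88 in HN. The LN fetuses fell into a higher pair (L5 and L8) and a lower pair that lay within the HN range. The arrays split alike in brightness, with a 75th percentile of log2 signal before normalization of 9.72 and 9.47 in L5 and L8, of 8.997 and 9.045 in L6 and L9, and of 9.49, 9.62, 9.28 and 9.17 in HN L1, L2, L3 and L10. With this brightness as a covariate, the difference of PSMD14 was 0.38 (limma adjusted p = 0.327). The difference was 0.31 (SE 0.19, limma adjusted p = 0.816, exact permutation p = 0.20), and without L5 it was 0.19. The dimmer of its 2 probes differed by 0.19 (SE 0.10) with no overlap between the groups, at 8.87, 8.94, 9.06 and 8.95 in LN and 8.66, 8.78, 8.84 and 8.80 in HN (exact permutation p = 0.0286).

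PSMD12, a scaffold of the lid, differed by 0.30 (SE 0.15, unadjusted limma p = 0.0711, exact permutation p = 0.0571), with 9.09 to 9.54 in LN and 8.73 to 9.18 in HN. PSMD11 (0.24, SE 0.16), PSMD7 (0.19, SE 0.14), the partner of PSMD14, and PSMD6 (0.16, SE 0.12) were also higher, and PSMD3 differed by 0.032 (SE 0.11). PSMD13 (NM_001024532) had the lowest difference of the lid, -0.12 (SE 0.13, exact permutation p = 0.371, -0.042 without L6), with levels of 12.85, 12.65, 12.99 and 12.99 in LN and 12.88, 13.12, 12.82 and 13.12 in HN. PSMD8 differed by -0.093 (SE 0.12), and by -0.0090 without L5. The groups overlapped in all 8 lid genes.

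Among the regulators that bind the ends of the core, PSMF1 (NM_001076478), known as an inhibitor of the core in vitro, was higher in LN by 0.21 (SE 0.14, exact permutation p = 0.114). Its levels were 11.31, 11.18, 11.44 and 11.44 in LN and 11.25, 11.22, 11.23 and 10.81 in HN, and the low HN value was that of L10, without which the difference was 0.11. PSME2 (NM_001014889) had the lowest difference of this class, with levels of 13.70, 13.58, 13.62 and 13.49 in LN and 13.70, 13.86, 13.63 and 13.59 in HN. PSME4, a nuclear activator, differed by 0.10 (SE 0.15). The class had 2 genes higher and 2 lower, with a median of 0.013.

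The assembly chaperones guide the subunits into rings and are not part of the finished particle. PSMG2 (NM_001046365), a chaperone of the alpha ring, was higher in LN by 0.21 (SE 0.16, exact permutation p = 0.20), with levels of 11.62, 11.01, 11.58 and 11.34 in LN and 11.25, 11.28, 11.21 and 10.98 in HN. Its partner PSMG1 differed by 0.18 (SE 0.13) and PSMG3 by 0.014 (SE 0.14). Among the chaperones of the base, PSMD5 differed by 0.18 (SE 0.12, exact permutation p = 0.0571), with 8.89 to 9.28 in LN and 8.75 to 8.92 in HN. PSMD9 differed by -0.017 (SE 0.18), and PSMD10 (NM_001046406) by -0.024 (SE 0.11), with levels of 8.47, 8.52, 8.52 and 8.38 in LN and 8.43, 8.60, 8.38 and 8.58 in HN. The median of the 6 chaperones was 0.097, with 4 higher and 2 lower, and was 0.051 without HN L3, 0.060 without HN L10 and 0.15 without HN L2. The difference of PSMG2 was 0.13 without L5 and 0.34 without L6.

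PSMB11 (NM_001099386), the form of PSMB5 known from the thymus, was dim, at 5.06, 5.43, 4.94 and 5.25 in LN and 4.88, 5.25, 5.31 and 5.11 in HN, and its difference was 0.031 (SE 0.15). Of the 2 genes that match by letters only, PSMC3IP (NM_001244194) had levels of 5.74, 4.74, 5.53 and 4.75 in LN and 4.99, 5.11, 4.83 and 4.72 in HN, with a difference of 0.28 (SE 0.25), which was 0.096 without L5 and 0.43 without L6. PSME3IP1 (NM_001014944) had levels of 11.31, 11.35, 11.26 and 11.54 in LN and 11.34, 11.32, 11.37 and 11.33 in HN, with a difference of 0.027 (SE 0.11). For these 3, the groups overlapped.

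Genes that work with the proteasome but carry other names were counted likewise. Among subunits and cofactors outside the PSM symbols, 12 of 16 detected genes were higher in LN, with a median of 0.12, and 0 passed an unadjusted limma p of 0.05. This median was 0.067 as a mean over each gene's probes and 0.077 without HN L10. In this list, 2 genes had no overlap between the groups, both higher in LN, beside 2.59% of all genes, and were named for that after their values were seen. SEM1, a small subunit of the lid, was 13.56, 13.58, 13.52 and 13.49 in LN and 13.27, 13.45, 13.38 and 13.36 in HN, a difference of 0.17 (SE 0.10, exact permutation p = 0.0286). USP14, a deubiquitinase that binds the base, was 9.07, 8.93, 8.86 and 8.88 in LN and 8.74, 8.71, 8.81 and 8.58 in HN, a difference of 0.23 (SE 0.11, exact permutation p = 0.0286). POMP, the maturation factor of the core, differed by 0.18 (SE 0.11), and the ubiquitin receptor ADRM1 by -0.022 (SE 0.11, and 0.032 without L6).

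NFE2L1 is the transcription factor that raises proteasome genes together when proteolysis falls short. Its difference was 0.081 (SE 0.15, and -0.022 without L6), with 12.84 to 13.42 in LN and 12.99 to 13.10 in HN. In the list of NFE2L1, its processing and partners, and p97, 11 of 14 detected genes were higher in LN, with a median of 0.083. Without L9, 9 of 14 were higher, with a median of 0.053, and without L8 the median was 0.13. With all fetuses, at an unadjusted limma p of 0.05, 2 were higher and 0 lower, beside 3.3% and 2.75% of all genes. MAFF, a small Maf protein that pairs with NFE2L1, differed by 0.72 (SE 0.30, exact permutation p = 0.0857), with 8.57 in L5 and 9.45 to 9.84 in the other LN fetuses, compared with 8.38 to 9.20 in HN. NGLY1, the glycanase that processes NFE2L1, differed by 0.33 (SE 0.14, exact permutation p = 0.0857). For both, the limma adjusted p was 0.785. Among ubiquitin and the enzymes that activate and transfer it, 14 of 19 genes were higher, with a median of 0.080, and 0 passed the unadjusted limma p. Without HN L3, 11 of 19 were higher, with a median of 0.040, and as a mean over each gene's probes the median was 0.049.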

How the data were processed

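The authors deposited scanner output of 8 one-colour arrays, made with Agilent Feature Extraction 11.0.1.1. Per the file headers, its processed intensity is corrected for background and for trends across the array. A deposited table of log2 values (31068 probes, those well above background on all 8 arrays) came from the same intensities, since 99.938% of its values lay within 0.001 of their quantile normalized log2. The study's methods name that normalization and no test for the arrays.

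Control and outlier spots were dropped, replicate spots were averaged as log2, and 43637 probes were quantile normalized. Detection required a signal well above background on 4 or more of 8 arrays (33439 probes). RefSeq accessions were looked up in a gene table of assembly ARS-UCD2.0 (26740 probes, 12603 genes), and coordinates were not used because the array follows another build. Each gene was read from its brightest detected probe. Of the members, 30 had more than 1 detected probe, and for 8 of these the probes pointed in both directions.

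LN was tested against HN with the linear models of limma 3.58.1 (R 4.3.3, empirical Bayes, both directions), with Benjamini-Hochberg adjustment over all detected probes, and the functions were tested on simulated data. Exact permutation tests used all 70 divisions of the fetuses. Full values are given for the immunoproteasome subunits and their counterparts, for members with an unadjusted limma p at or below 0.05 or no overlap, and for the highest and lowest member of each class. Of every other list, at most 3 genes per direction past that p were to be named. Some genes of these lists enter the counts but are not reported here by name. Members and lists were chosen with earlier results of these data known. Alternatives were other scalings, background corrections, filters, probe summaries and test settings, a block for slide position, leaving out 1 fetus at a time, and, chosen after seeing the data, the brightness of each array (75th percentile of log2 signal) as a covariate.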

Additional observations from a re-analysis of the deposited data

Results flagged for a closer look

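In 4 of 94 groups of 4 fetuses tested (47 genes, LN and HN), 1 fetus stood apart from the other 3, and chance flags about 1 in 20 such groups. All 4 were in HN. PSMA4 was 11.28 in L3, compared with 10.69 to 10.75 in the other HN fetuses. PSMB2 was 11.67 in L10, compared with 11.43 to 11.46. PSMB4 was 14.25 in L2, compared with 14.002 to 14.019. PSMF1 was 10.81 in L10, compared with 11.22 to 11.25.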

How the results depend on the processing

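By the study's methods, dams were assigned at random to LN or HN, so the fetuses of the 2 groups form no pairs. The block for position joins arrays only by their place on the slides. In 17 alternatives, 0 members passed an adjusted limma p of 0.05, and PSMB8, PSMB9 and PSMB10 kept their sign. Members higher in LN numbered 28 (without HN L3) to 38 (without HN L2) of 47. The count higher at an unadjusted p was 2 with normexp (PSMA3 and PSMD12, beside 4.72% of all genes in that fit), 0 with position as a block (2.43% of all genes), 6 with array brightness as a covariate (PSMC3IP, PSMD14, PSMD12, PSMA3, PSMG2 and PSMA5, beside 5.91% of all genes) and 0 to 2 without 1 fetus (1.89% to 4.15%). The count lower was 0 to 2 without 1 fetus, with 0 without LN L9, HN L1 or HN L10 (1.89% to 3.6% of all genes in these fits). The beta ring median was 0.033 with normexp, 0.018 as a mean over probes, 0.043 with brightness, and -0.035 to 0.098 without 1 fetus. The lid median was 0.11 to 0.21, the chaperone median 0.051 to 0.15 and the constitutive median 0.063 to 0.13 without 1 fetus. The activator median was -0.022 as a mean over probes and -0.028 to 0.048 without 1 fetus. The base median was 0.015 to 0.13 without 1 fetus, the highest without HN L2. PSMB10 minus PSMB7 was -0.49 with normexp (exact permutation p = 0.0571) and -0.76 to -0.52 without 1 fetus. Other reversals were PSMB1 (0.00073) and PSMD10 (0.022) with normexp, and PSMB11 at the 75th percentile scaling (-0.15) and with brightness (-0.0022). Without 1 fetus, PSMB5 ranged from -0.055 to 0.12, PSMB6 from -0.083 to 0.022, PSMD10 from -0.064 to 0.0093, PSMB11 from -0.055 to 0.11 and PSME3IP1 from -0.031 to 0.063. The causes were not tested. The exact test of the subunit pairs was not run with the empirical Bayes settings, the block or the brightness covariate.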

Other observations

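Outside the proteasome, 2 further genes of the lists had no overlap between the groups, both higher in LN, beside 2.59% of all genes, and were named after their values were seen. UBE2N, a ubiquitin-conjugating enzyme, was 11.89, 11.83, 11.85 and 11.68 in LN and 11.61, 11.67, 11.63 and 11.24 in HN, a difference of 0.27 (SE 0.13, limma adjusted p = 0.787, exact permutation p = 0.0286), which was 0.17 without HN L10. PDIA3, a chaperone of the peptide loading complex, was 12.95, 12.99, 13.09 and 12.96 in LN and 12.90, 12.90, 12.80 and 12.84 in HN, a difference of 0.14 (SE 0.10, limma adjusted p = 0.838, exact permutation p = 0.0286). PDIA3 was higher in LN in the same list in which IRF1 was lower.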
